A study of Mus musculus with 10 samples.

Results

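The genes described are the 38 autophagy machinery and receptor genes that were chosen by symbol from the table of RNA-seq levels in livers of *db/db* mice. All 38 were found, among 15126 genes in all, with 1 Ensembl identifier each. They were chosen by what their proteins do, with earlier results of these data known. The levels are those of the 5 AAV8-Control livers. *db/db* mice lack a working leptin receptor, and they become obese, insulin resistant and diabetic. The AAV8-Control mice were 10 weeks old, and their livers were examined 5 weeks after infection through the tail vein with an adeno-associated virus of serotype 8 (AAV8) that encodes eGFP, a fluorescent protein. No comparison between groups is made, so what follows describes *db/db* livers that carry a control virus and does not show what the leptin receptor defect or the virus changed. The promoter of the vector and the feeding state of the mice at collection are not given in the sources used here.

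Autophagy encloses parts of the cytoplasm in a membrane, the autophagosome, and delivers them to the lysosome for breakdown. In liver it is known for supplying amino acids and fatty acids in fasting and for clearing lipid droplets, mitochondria and protein aggregates. A kinase complex starts the process, a lipid kinase marks the membrane, Atg9 and Atg2 feed the membrane with lipid, and a pair of ubiquitin-like conjugation reactions attach Atg8-family proteins to it. Cargo receptors then tie the freight to these proteins. Much of this control acts on the proteins, through phosphorylation, cleavage and turnover. The mRNA levels therefore measure neither the amounts of the proteins nor the flux through the pathway.

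The 5 libraries held 19499795 to 35498596 reads counted on genes. Levels are given in CPM, the reads of a gene scaled to the library's total of reads counted on genes, and levels of different genes are compared in CPM per kilobase of exon. The 6 hepatocyte markers (*Alb*, *Ttr*, *Apoa1*, *Tat*, *Hnf4a* and *Cyp2e1*) were all detected and summed to 94917 to 129488 CPM. The labels name whole liver, AAV8 and also primary hepatocytes, and their protocols describe cultured hepatocytes with adenovirus. Markers of macrophages, endothelium, stellate cells, cholangiocytes and erythroid cells were present, summing to at least 29.2 CPM per list in every liver, so the levels are those of a mixture of cells. Lymphocyte, neutrophil and skeletal muscle markers summed to at most 2.31 CPM per list, and the 3 adipocyte markers to 1.24 to 11.5 CPM. In such bulk RNA, fewer cells of a type and less RNA per cell cannot be told apart.

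All 38 genes were expressed, from a mean of 4.99 CPM for *Atg10* to 450 CPM for *Sqstm1*, and each had at least 90 reads in every liver. Per kilobase of exon, *Gabarap* (149 ± 5.003 CPM per kilobase, mean ± SD, n = 5 livers), *Gabarapl1* (149 ± 18.7) and *Sqstm1* (134 ± 7.92) stood above all the others. *Map1lc3a* came next at 35.6 ± 4.21 CPM per kilobase. *Tfeb* was the lowest at 1.34 ± 0.061 CPM per kilobase. The levels therefore differed far more between genes than between livers. Neighbours in the order mostly had overlapping ranges over the livers, as 31 of the 37 neighbouring pairs did. The 6 pairs whose ranges did not overlap were *Sqstm1* above *Map1lc3a*, *Nbr1* above *Optn*, *Optn* above *Atg101*, *Atg13* above *Bnip3l*, *Becn1* above *Atg4c* and *Atg2b* above *Tfeb*.

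The order depended on the length used. With the longest principal transcript in place of all annotated exons, *Sqstm1* came first at 221 CPM per kilobase, *Gabarap* followed at 204 and *Gabarapl1* at 165. The same 3 genes thus remained highest. *Wipi2* went from place 17 to place 8, since its level was 6.56 CPM per kilobase of all exons and 35.3 of the principal transcript. The lowest place went from *Tfeb* to *Atg4a*, at 2.69 CPM per kilobase, and *Tfeb* was then at 3.30. The values that follow use all exons unless the principal transcript is named.

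**Figure D1:**
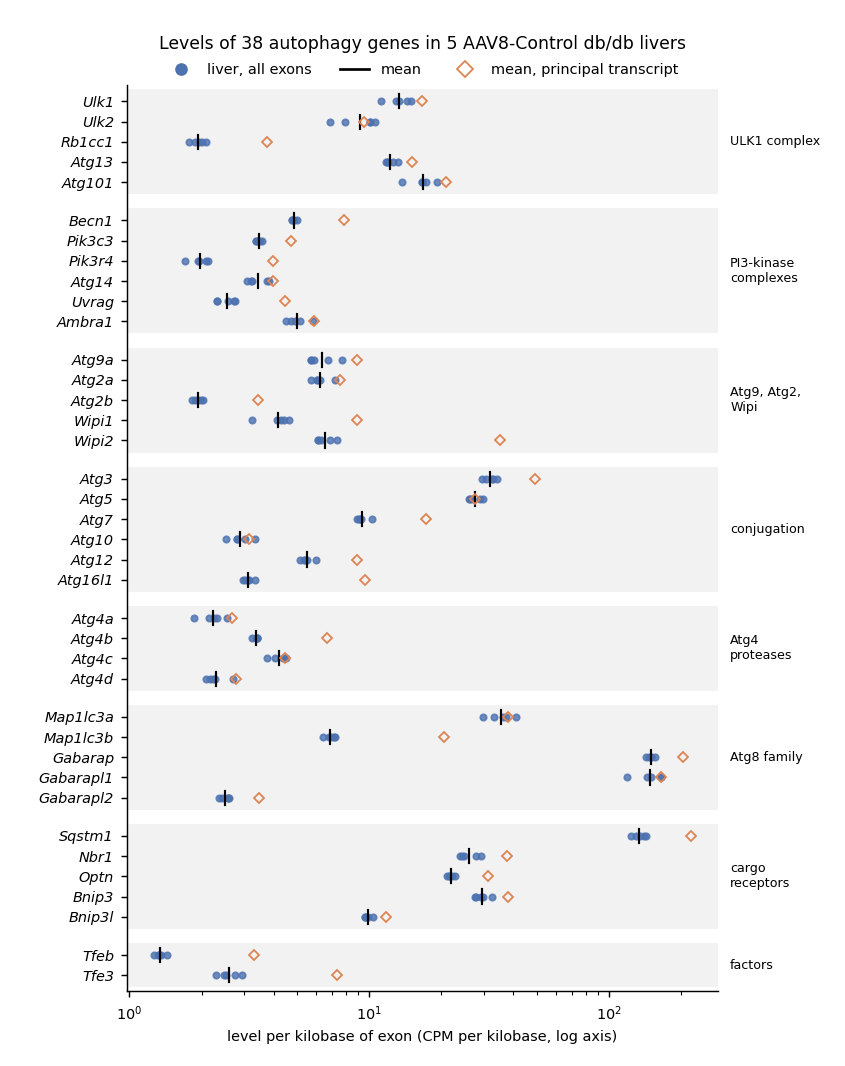
Level per kilobase of exon (x axis, CPM per kilobase, log scale) of each of 38 autophagy genes, grouped by role, in 5 AAV8-Control *db/db* livers (points) with their mean (black line) and the mean by principal transcript (open diamond). *Gabarap*, *Gabarapl1* and *Sqstm1* lie apart from the rest at 134 to 149 CPM per kilobase, and *Tfeb* is lowest at 1.34.

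The role groups differed in level. The 5 genes of the Atg8 family had the highest median, 35.6 CPM per kilobase, followed by the 5 cargo receptors at 26.1 and the 5 genes of the ULK1 complex at 12.3. The 6 conjugation enzymes had a median of 7.41 and the 5 genes of the Atg9, Atg2 and Wipi group one of 6.25. The 6 genes of the PI3-kinase complexes were at 3.44, the 4 Atg4 proteases at 2.83 and the 2 transcription factors at 1.97. By principal transcript the medians of the first 3 groups were 37.8, 37.4 and 15.1, those of the conjugation enzymes and the Atg9, Atg2 and Wipi group were 13.5 and 8.91, and the transcription factors, at 5.33, lay above the PI3-kinase genes, at 4.60, and the Atg4 proteases, at 3.62. These are medians over few genes.

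Of the ULK1 initiation complex, *Atg101* had the highest level and *Rb1cc1* the lowest. Ulk1 and its relative Ulk2 are the kinases that start autophagosome formation, and Rb1cc1 (FIP200), Atg13 and Atg101 are their scaffold and partners. *Ulk1*, at bases 110784488 to 110810097 of chromosome 5 of GRCm38 (reverse strand), was at 83.6, 93.0, 96.8, 72.6 and 86.8 CPM in livers 1 to 5. Liver 4 was lowest and liver 3 highest. *Ulk2* was at 60.4, 47.5, 41.1, 60.4 and 63.3 CPM, with livers 2 and 3 below the other three, and it varied most between livers of all 38 genes. Per kilobase *Ulk1* lay above *Ulk2* in 5 of 5 livers, by 1.52 ± 0.446 times (SD), and this ratio ran from 1.11 to 2.17. *Atg101* was at 16.7 ± 1.98 CPM per kilobase and *Rb1cc1* at 1.94 ± 0.12 (SD, n = 5 livers each).

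*Becn1* and *Pik3c3*, of the class III PI3-kinase complexes, varied little between livers. Pik3c3 (Vps34) makes the lipid PI3P with its regulatory partner Pik3r4 and the scaffold Becn1 (Beclin 1), and Atg14 or Uvrag directs the complex to early or late steps, while Ambra1 binds Becn1. *Becn1*, at bases 101285952 to 101302286 of chromosome 11 (reverse strand), was at 34.5, 35.5, 34.1, 33.6 and 33.7 CPM. All 5 livers lay close together, with a coefficient of variation (SD over mean) of 2.19%. Exons of *Cntd1*, a meiotic gene on the opposite strand, cover 43.9% of the exon bases of *Becn1*. *Cntd1* was listed with at most 3 reads in any of these livers, but reads that fit both genes may have been left out of the counts, so the level of *Becn1* is uncertain. *Pik3c3* was at 15.4 ± 0.369 CPM (SD, n = 5 livers), a coefficient of variation of 2.39%. With TMM scaling the coefficients of *Becn1* and *Pik3c3* were 3.52% and 4.53%. Per kilobase of all exons *Ambra1* was highest of the 6, at 5.02, with a range that overlapped that of *Becn1*, and *Pik3r4* was lowest, at 1.96. By principal transcript both ends turned, with *Becn1* highest at 7.85 and *Atg14* lowest at 3.97, next to *Pik3r4* at 3.99. *Atg14* lay above *Uvrag* in 5 of 5 livers, by 1.36 ± 0.25 times, but by principal transcript the ratio was 0.89, so the order of these alternative partners is not settled by these levels. An antisense gene, not analysed here, covers 17.6% of the exon bases of *Uvrag*.

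Among the genes that supply lipid to the growing membrane or read its PI3P, *Wipi2* was highest and *Atg2b* lowest. Atg9a is the membrane protein of the seed vesicles, Atg2a and Atg2b transfer lipid into the membrane, and Wipi1 and Wipi2 bind PI3P. *Atg2a* lay above *Atg2b* in 5 of 5 livers, by 3.25 ± 0.308 times, and by 2.20 times by principal transcript. *Wipi2* lay above *Wipi1* in 5 of 5 livers, by 1.60 ± 0.194 times, and by 3.95 times by principal transcript. *Atg9a* was at 44.3, 33.0, 33.0, 33.9 and 38.9 CPM, with liver 1 highest. Exons of other genes, *Ankzf1* on the opposite strand and a transcript on the same strand, cover 32.6% of the exon bases of *Atg9a*, so its reads are uncertain.

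The conjugation enzymes attach Atg12 to Atg5 and Atg8-family proteins to lipid. Atg7 is the E1-like enzyme of both reactions, Atg10 and Atg3 are the E2-like enzymes for Atg12 and for Atg8 proteins, and Atg16l1 brings the Atg12-Atg5 conjugate to the membrane. The E2-like enzymes stood at the ends of the group, with *Atg3* highest at 32.0 ± 1.83 CPM per kilobase and *Atg10* lowest at 2.90 ± 0.30 (SD, n = 5 livers each), an 11.0-fold difference. *Atg10*, at bases 90935356 to 91223968 of chromosome 13 (reverse strand), was at 5.23, 4.81, 5.72, 4.81 and 4.35 CPM. *Atg5* was at 27.6 CPM per kilobase and *Atg12*, its partner in the conjugate, at 5.48. *Atg7* was at 9.34 and *Atg16l1* at 3.13 CPM per kilobase. By principal transcript *Atg7* was at 17.3, *Atg16l1* at 9.61 and *Atg12* at 8.87 CPM per kilobase, while *Atg3* and *Atg10* remained the highest and the lowest of the group.

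The Atg4 proteases trim newly made Atg8-family proteins so that they can be joined to lipid, and later release them from the membrane. Their levels per kilobase of all exons ran from 2.23 CPM for *Atg4a* to 4.21 for *Atg4c*, and by principal transcript from 2.69 for *Atg4a* to 6.69 for *Atg4b*. *Atg4c* was above *Atg4b* in 5 of 5 livers by 1.25 ± 0.0881 times, and by principal transcript the ratio was 0.664. *Atg4b* had a coefficient of variation of 2.17%, the lowest of all 38 genes, but of 3.78% with TMM scaling, where it was no longer the lowest. *Atg4d*, at bases 21265293 to 21277772 of chromosome 9 (forward strand), was at 19.6, 16.2, 16.5, 15.1 and 15.8 CPM, with liver 1 above the rest. Exons of *Kri1*, a gene of ribosome assembly on the opposite strand, cover 19.3% of the exon bases of *Atg4d*, and the library protocol has no step that marks strand. *Kri1* was at 4.12 to 5.61 CPM. Reads of *Atg4a* are uncertain, since 51.2% of its 50-base windows also occur in transcripts of 2 other genes, *Atg4a-ps* among them, and the deposited levels hold uniquely aligned reads.

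The Atg8 family, the proteins that are joined to the autophagosome membrane and include the usual marker LC3, spanned the widest range of the role groups, 59.4-fold. Per kilobase of all exons, *Gabarap* and *Gabarapl1* had mean levels that differed by less than the spread over livers, as *Gabarapl1* lay above *Gabarap* in 3 of 5 livers, with a ratio of 0.996 ± 0.106. By principal transcript the ratio was 0.809, and *Gabarap* was above in 5 of 5 livers. Exons of a transcript on the opposite strand, *1700101I11Rik*, cover 28.3% of the exon bases of *Gabarapl1*. *Gabarapl1* was at 291.6, 302.5, 240.6, 332.1 and 331.9 CPM, lowest in liver 3, while *Gabarap* was at 277.0, 275.3, 263.3, 271.5 and 288.6 CPM. *Gabarapl2*, the third of this subfamily, was at 6.00, 6.07, 5.49, 5.65 and 5.99 CPM. *Gabarap* lay above it by 59.4 ± 1.61 times per kilobase (SD, n = 5 livers). Processed pseudogenes share 12.2% of the 50-base windows of *Gabarapl2*.

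LC3 mRNA lay between these. *Map1lc3b* (LC3B), on the forward strand of chromosome 8, was at 53.7, 54.0, 48.2, 51.3 and 52.1 CPM, lowest in liver 3. *Map1lc3a* (LC3A) was at 48.5, 39.3, 44.2, 35.4 and 42.9 CPM and varied more over the livers than *Map1lc3b*, with coefficients of variation of 11.8% and 4.52%. Per kilobase *Map1lc3a* lay above *Map1lc3b* in 5 of 5 livers, by 5.17 ± 0.649 times, although the ratio by principal transcript was 1.85. Other genes, processed pseudogenes among them, share 6.0% of the 50-base windows of *Map1lc3b* and 0% of those of *Map1lc3a*.

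*Sqstm1* was by far the highest of the cargo receptors. Sqstm1 (p62) and Nbr1 bind ubiquitinated cargo, Optn binds ubiquitin on damaged mitochondria and bacteria, and Bnip3 and Bnip3l sit on mitochondria and mark them for removal. *Sqstm1*, at bases 50199366 to 50210827 of chromosome 11 (reverse strand), was at 480.9, 434.2, 451.7, 414.5 and 468.8 CPM. Liver 4 was lowest, and liver 1 was highest, where with TMM scaling liver 5 was. It lay above *Nbr1* in 5 of 5 livers, by 5.19 ± 0.651 times per kilobase. Exons of *Mrnip* on the opposite strand cover 17.3% of the exon bases of *Sqstm1*, so the level of *Sqstm1* is uncertain, and *Mrnip* was at 2.55 to 5.18 CPM. *Bnip3* lay above *Bnip3l* in 5 of 5 livers, by 2.9955 ± 0.253 times, but 47.2% and 20.8% of their 50-base windows are shared with other genes. *Optn* was at 83.0, 80.99, 81.9, 79.1 and 85.4 CPM, a narrow range around 21.9 CPM per kilobase.

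Tfeb and Tfe3 are the transcription factors that, once dephosphorylated and moved to the nucleus, drive lysosomal and autophagy genes in fasting. *Tfeb*, at bases 47737030 to 47792419 of chromosome 17 (forward strand), was at 8.10, 7.46, 7.52, 7.65 and 7.15 CPM. The 5 livers lay close together, with liver 1 highest, or liver 4 with TMM scaling. *Tfe3* was at 24.1 ± 2.36 CPM (SD, n = 5 livers) and lay above *Tfeb* per kilobase in 5 of 5 livers, by 1.95 ± 0.187 times and by 2.23 times by principal transcript. The position of these proteins in the cell is not measured by RNA-seq.

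The promoters were read for the E-box CACGTG, the core of the sites that Tfeb and Tfe3 bind. RefSeq promoters on GRCm38.p6, from 250 bases before to 50 after the start, matched 31 of the 38 genes by symbol. A gene can have more than 1 promoter and was counted if any of them held the letters. The shares given of all promoters count single promoters, so they are not a like measure for the counts of genes. The letters CACGTG, which read the same on both strands, were found in 5 of the 31, those of *Atg3*, *Atg5*, *Atg7*, *Atg14* and *Bnip3*, and in 7.15% of 32851 promoters. The longer form TCACGTGA, which holds CACGTG, was in 1 of the 31, that of *Atg3*, and in 0.974% of all promoters. The FoxO letters GTAAACA, searched on both strands, were in 0 of the 31 and in 3.65% of all promoters. A match of letters is a description and not a site of binding. The windows of 60 bases printed next lie before the start of a member with an E-box, and capitals mark CACGTG. They are shown because these are the members with an E-box that had the highest levels per kilobase.
*Atg3*, forward strand, chr16:45158708-45158767: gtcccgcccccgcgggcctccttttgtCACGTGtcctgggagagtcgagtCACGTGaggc
*Atg5*, forward strand, chr10:44268279-44268338: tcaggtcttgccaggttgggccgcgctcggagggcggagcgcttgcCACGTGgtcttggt
*Bnip3*, reverse strand, chr7:138909582-138909641: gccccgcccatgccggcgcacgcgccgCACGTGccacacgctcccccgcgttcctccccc

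The *Atg3* window holds CACGTG at 2 places. *Atg3* was at 103.4, 93.2, 96.7, 107.7 and 102.9 CPM in livers 1 to 5, or 32.0 CPM per kilobase. *Bnip3* was at 67.4, 62.7, 73.8, 66.6 and 63.03 CPM, or 29.4 per kilobase, and *Atg5* was at 69.9, 61.1, 63.4, 68.2 and 62.2 CPM, or 27.6 per kilobase. Livers that were high for one of these genes were not always high for another, as liver 3 was highest for *Bnip3* and liver 4 for *Atg3*. The other members with an E-box, *Atg7* and *Atg14*, were at 9.34 and 3.42 CPM per kilobase.

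The autophagy genes varied little between livers. The median coefficient of variation over the 5 livers was 7.10% for the 38 genes. It was 10.6% for the 11041 genes that averaged 1 CPM or more, and 9.05% for the 8278 of these whose mean lay within the range of the members' means. It was 8.14% for the other autophagy genes and 7.56% for the lysosome genes described further on. Of the 38 genes, 30 lay below the first of these medians and 24 below the second. *Atg4b*, *Becn1* and *Pik3c3* were the steadiest, at 2.17%, 2.19% and 2.39%, but this order depended on the scaling. With TMM they were at 3.78%, 3.52% and 4.53%, and *Atg13* (2.53% in place of 5.01%), *Atg7* (2.77% in place of 6.03%) and *Optn* (2.93% in place of 2.86%) were the steadiest. *Ulk2* (17.7%), *Atg9a* (13.5%), *Wipi1* (12.8%) and *Gabarapl1* (12.5%) varied most, and of these *Ulk2* also varied most with TMM, at 17.4%. *Wipi1* was at 19.4, 18.9, 20.5, 14.4 and 18.3 CPM, and its spread came mainly from the low liver 4. The ratio of the highest to the lowest liver had a median of 1.19 over the 38 genes and of 1.30 over all genes at this level. It was 1.25 for those within the range of the members' means. These are descriptions, and it was not tested whether the 38 genes differ from other genes in spread.

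**Figure D2:**
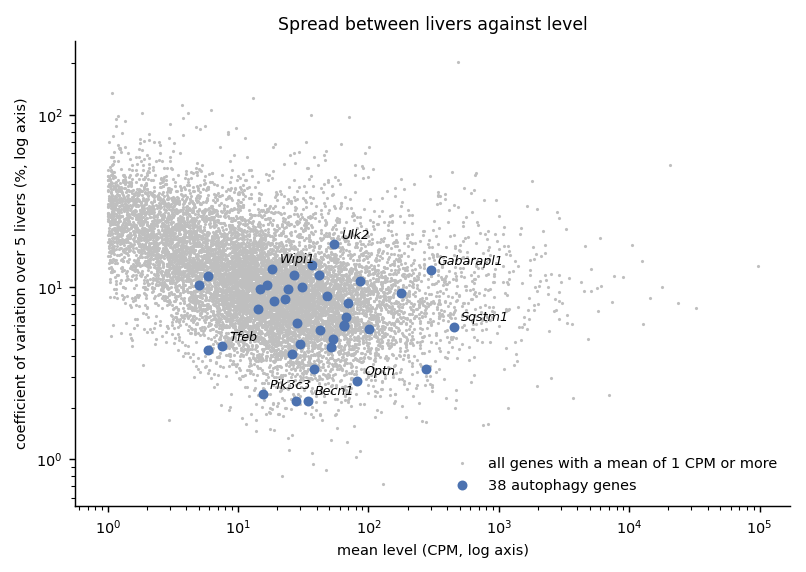
Coefficient of variation over 5 AAV8-Control livers (y axis, %, log scale) against the mean level (x axis, CPM, log scale) of the 38 autophagy genes (blue) and of all genes averaging 1 CPM or more (grey). The autophagy genes have a median of 7.10% and run from *Atg4b* at 2.17%, next to *Becn1* at 2.19%, to *Ulk2* at 17.7%.

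Among the livers, liver 1 held the highest level of 15 of the 38 genes, or 39.5%, against 37.8% of all genes averaging 1 CPM or more. Liver 4 held the lowest level of 15 of the 38, or 39.5%, against 31.7% of all genes. These shares went with the scaling, since with TMM factors, which ran from 0.968 to 1.05 relative to total reads, the pattern turned round. Liver 1 then held the lowest level of 12 members and the highest of 9, and liver 4 the highest of 12 and the lowest of 9. Of all genes, liver 1 held the lowest level of 24.5% and the highest of 22.5% with TMM, and liver 4 the highest of 24.8% and the lowest of 23.2%. On the log2 scale the median gene of the 38 deviated from its mean over the livers by 0.052 in liver 1 and by -0.032 in liver 3, and that of all genes by 0.064 and -0.0085. The corresponding values were -0.029 and -0.022 in liver 2, -0.018 and -0.037 in liver 4, and 0.012 and 0.0045 in liver 5. The medians of members and of all genes had the same sign in every liver but not the same size. Whether they are linked was not tested.

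**Figure D3:**
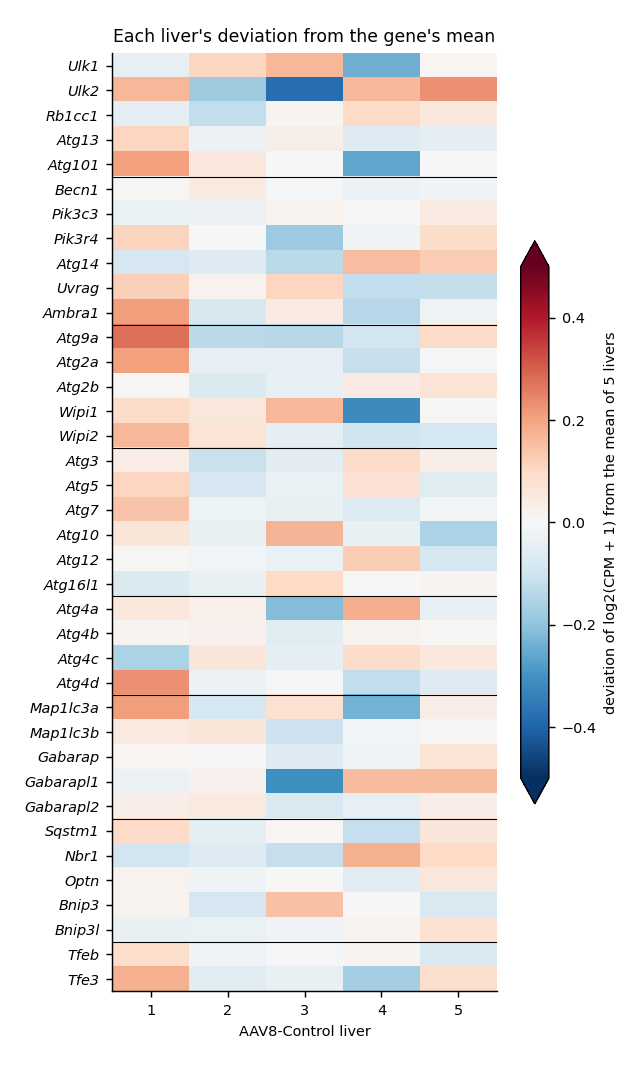
Deviation of log2(CPM + 1) of each autophagy gene (rows, grouped by role) from its mean over the 5 AAV8-Control livers (columns), in colour from blue (below the mean) to red (above it). With scaling by total reads, as drawn, liver 1 holds the highest level of 15 of the 38 genes and liver 4 the lowest of 15, while with TMM liver 1 holds the lowest of 12 and liver 4 the highest of 12.

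Other genes of the pathway, chosen by function, had a similar median level. Of 50 other autophagy genes, which act in membrane formation, fusion with the lysosome and selective autophagy, 48 averaged 1 CPM or more. Their median was 6.21 CPM per kilobase, against 5.87 for the 38 genes. All genes at that level with a known length had a median of 3.24, and those within the range of the members' means 4.82. *Pink1*, the kinase that marks damaged mitochondria, was the highest at 91.4 ± 8.81 CPM per kilobase, and *Fkbp8*, a mitochondrial receptor, followed at 71.3 ± 9.78 (SD, n = 5 livers each). *Bcl2*, which binds Becn1, was the lowest of these 48 at 0.114 CPM per kilobase, below every one of the 38 genes.

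The lysosome, where autophagosomes end, had more mRNA per length. Of 54 genes of lysosomal enzymes, membrane proteins and the proton pump, 53 averaged 1 CPM or more, and 1, *Gm2a*, was not analysed here. The median of the 53 was 13.0 CPM per kilobase. *Lamp1*, a membrane protein of the lysosome, was the highest at 284 ± 4.51 CPM per kilobase, above every one of the 38 genes, and *Ctsd*, a cathepsin, was at 242 ± 36.4 (SD, n = 5 livers each). The range of *Ctsd* over the livers, 190 to 285 CPM per kilobase, was far wider than that of *Lamp1*, 277 to 289.99.

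The transcriptional and nutrient regulators of autophagy had the lowest median level and the highest median spread of these lists. All 40 averaged 1 CPM or more, with a median of 5.23 CPM per kilobase and a median coefficient of variation of 10.9%. For all genes at that level the medians were 3.24 CPM per kilobase and 10.6%. *Nr1h4*, the bile acid receptor FXR, was the highest at 53.6 ± 2.45 CPM per kilobase. *Ppara*, a fatty acid receptor of fasting liver, was at 26.3 ± 2.58, and *Tfec*, a relative of Tfeb, was the lowest at 0.232 ± 0.0604 (SD, n = 5 livers each).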

How the data were processed

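RNA-seq of 5 *db/db* livers with AAV8-Control was analysed. The other livers of the series, and every comparison with them, are not reported here. Poly-A RNA was read as single reads of 50 bases. The authors aligned reads with STAR 2.0.4b to GRCm38.p2 and counted those aligned to a single place with featureCounts 1.4.5 of the Subread package, per the submitters' processing notes. The authors deposited CPM, scaled to all reads counted on genes, in 15236 lines for 15126 genes, of which 110 repeat another line. Whole reads were recovered from the CPM for 100% of values (tolerance 0.01 reads). The strand setting of the counting is not given in the sources used here.

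Means, SDs, coefficients of variation and ratios were computed on CPM, and levels of genes were compared per kilobase of all annotated exons or of the longest principal transcript (GENCODE M21). No test between groups was run. TMM factors (edgeR 4.0.16), DESeq2 1.42.0 size factors (R 4.3.3) and leaving out each library were alternatives, chosen after the data were seen.

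The 38 genes and the other lists were chosen with earlier results of these data known. Levels by liver were planned for *Tfeb*, *Ulk1*, *Becn1*, *Map1lc3b* and *Sqstm1*. The rest of the planned rule for named genes used comparisons, so the other genes given by liver, and the highest and lowest of each group and list, were chosen after their values were seen. The labels number the livers without saying that each came from its own mouse, so SDs measure the spread between these samples.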

Additional observations from a re-analysis of the deposited data

Results flagged for a closer look

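Each gene was searched for a single AAV8-Control liver that stood apart from the other 4 by Dixon's criterion, in 38 groups of 5 livers. With scaling by total reads a liver stood apart in 2 groups, and chance alone marks about 1 group in 20. *Atg7* in liver 1 was at 71.9 CPM, above the 61.9 to 64.3 CPM of the other livers. *Atg4b* in liver 3 was at 26.8 CPM, below the 28.0 to 28.3 CPM of the other livers. With TMM scaling liver 1 was lower still for *Atg4b*, at 26.7 CPM against 27.1 in liver 3, and no liver stood apart, nor did one with DESeq2 size factors. *Atg7* in liver 1 stood apart under both, at 68.2 CPM with TMM against 63.8 to 64.7 CPM.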

How the results depend on the processing

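The median coefficient of variation of the 38 genes, 7.10%, was 6.85% with TMM scaling, 7.06% with DESeq2 size factors and 5.58% to 7.53% when single livers were left out, lowest without AAV8-Control replicate 1. The mean CPM of a gene moved by less than its SD over the livers in all 266 recomputed values, with shifts from -5.22% to 6.14%. For the values without a liver this could not be otherwise, since dropping 1 of 5 values cannot move a mean by its SD. Scaling factors near 1 also change a mean little, so the count does not show how stable the levels are. The order of levels per kilobase depended more on the length used, as the report gives. The alternatives planned for comparisons between groups were not run, since no comparison is reported. No paired analysis was possible because the livers of only 1 group are reported. With 5 livers, the spread of a single gene is itself known only roughly.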
